A study of Mus musculus with 8 samples.

Results

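The acyl-CoA thioesterase (*Acot*) genes were followed in the liver of mice fed alcohol. Their products cleave acyl-CoA esters into a free fatty acid and coenzyme A. The family was chosen by name, because *Acot3* had the largest alcohol-related rise in wild-type (WT) liver. Of the 10 genes named, 9 are in the table of 19267 genes and all 9 passed the filter on low counts, which left 13993 genes to test. *Acot5* is not analysed here. The 9 genes comprise 5 clustered type I genes (*Acot1*, *Acot2*, *Acot3*, *Acot4* and *Acot6*) and 4 others (*Acot7*, *Acot8*, *Acot12* and *Acot13*).

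RNA of whole liver was sequenced in 8 libraries, with 2 in each of 4 groups of male C57BL/6 mice. The mice received the Lieber-DeCarli liquid diet from 6 weeks of age for 21 days and were sampled at 9 weeks. EtOH groups had 5% (w/v) alcohol in this diet, and pair-fed Control groups had maltose dextrin of equal energy in its place. The genotypes were Elf4fl/fl-Villin-Cre, called Elf4-/- here, and WT mice that carried Cre as well, per the study's methods. The groups are written WT-Control, WT-EtOH, Elf4-/- Control or Elf4-/- EtOH. Villin drives Cre in the intestinal epithelium, so the liver of Elf4-/- mice was not itself the site of deletion, and *Elf4* in liver does not check the genotype labels. In CPM (counts relative to a library size scaled by TMM factors), liver *Elf4* was at 1.57 ± 0.639 under Control and 3.53 ± 0.180 under EtOH in WT, and at 1.06 ± 0.236 and 3.36 ± 1.61 in Elf4-/- (mean ± SD, n = 2). Library totals ran from 6171051 to 9157362 counts. No label says that the libraries came from separate animals, so the p-values measure only the spread between these samples, which may be technical.

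Type I enzymes share a fold with bile acid-CoA:amino acid N-acyltransferase and differ mainly in where they act and on which chain lengths. ACOT1 is cytosolic, ACOT2 is mitochondrial, and ACOT3, ACOT4 and ACOT6 are peroxisomal. The other members belong to an unrelated group with a hotdog fold. In rodent liver, type I genes are known to be induced by fasting and by agonists of PPARalpha, the nuclear receptor of fatty acid oxidation.

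The type I genes lie side by side on the plus strand of chromosome 12 (GRCm38, GENCODE M21), from 83987861 to 84111349, a span of 123.5 kb that holds 6 *Acot* genes. In order, *Acot2* starts at 83987861 and ends at 83993873, *Acot1* spans 84009490 to 84018371, *Acot4* spans 84038379 to 84048601, *Acot3* spans 84052144 to 84060402, and *Acot6* spans 84100654 to 84111349. All are protein coding, with 3 or 4 merged exon blocks each. The others are scattered: *Acot7* on chromosome 4 (152178134 to 152271855, plus strand), *Acot8* on chromosome 2 (164792765 to 164804882, minus strand), and *Acot12* (91741512 to 91786148, plus strand) and *Acot13* (24817948 to 24831540, minus strand) on chromosome 13. The coding sequences of type I genes, *Acot5* included, matched each other at 67.8% to 86.9% of bases of the longer sequence, with *Acot1* and *Acot2* the closest pair.

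Because the diet values of the clustered genes had the same sign, the 250 bases before the RefSeq start (GRCm38.p6) are shown for the 4 type I genes with the highest counts. Capitals mark the nuclear receptor core motif AGGTCA, searched on both strands, so a capital run of TGACCT is a core motif on the minus strand.

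*Acot2*, chr12:83987611-83987860, plus strand: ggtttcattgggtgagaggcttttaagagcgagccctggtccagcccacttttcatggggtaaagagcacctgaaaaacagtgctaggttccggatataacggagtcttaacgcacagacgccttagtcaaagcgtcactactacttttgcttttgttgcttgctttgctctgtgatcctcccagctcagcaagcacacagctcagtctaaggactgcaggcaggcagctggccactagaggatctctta

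*Acot1*, chr12:84009252-84009501, plus strand: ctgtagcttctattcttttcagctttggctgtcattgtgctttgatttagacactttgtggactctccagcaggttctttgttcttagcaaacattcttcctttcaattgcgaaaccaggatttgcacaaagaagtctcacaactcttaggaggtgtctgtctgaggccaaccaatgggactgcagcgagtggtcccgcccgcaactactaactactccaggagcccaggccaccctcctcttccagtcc

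*Acot4*, chr12:84038129-84038378, plus strand: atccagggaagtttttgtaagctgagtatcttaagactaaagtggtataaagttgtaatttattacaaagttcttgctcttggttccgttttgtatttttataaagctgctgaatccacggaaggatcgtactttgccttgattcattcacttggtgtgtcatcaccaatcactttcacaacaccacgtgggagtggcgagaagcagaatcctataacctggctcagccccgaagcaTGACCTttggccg

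*Acot3*, chr12:84051894-84052143, plus strand: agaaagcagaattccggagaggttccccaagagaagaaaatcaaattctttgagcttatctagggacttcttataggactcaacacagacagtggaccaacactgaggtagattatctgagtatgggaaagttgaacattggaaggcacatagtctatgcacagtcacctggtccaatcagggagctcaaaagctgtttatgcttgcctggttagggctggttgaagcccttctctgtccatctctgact

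Only the *Acot4* window of these 4 holds a core motif, at position −13 from the start. Of all 27025 genes with such a window, 15.76% hold a core motif. Among the members outside the cluster, the *Acot12* window holds one and those of *Acot7* and *Acot8* hold none. No member window holds the direct repeat AGGTCANAGGTCA or its relaxed form AGGNCANAGGNCA, which 0.04% and 0.4% of genes hold. A match here is a description of the letters and not evidence of binding, and no match says nothing of the factor beyond this window. *Acot6* and *Acot13* had no entry.

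The type I genes made up a small part of the family's counts in WT-Control liver and the larger part of the counts in both EtOH groups. *Acot3*, a peroxisomal long-chain thioesterase, had 2 and 3 counts under Control and 1047 and 2560 under EtOH in WT. In Elf4-/- it had 41 and 26 counts under Control and 612 and 744 under EtOH. Both EtOH groups lay above both Control groups, and Elf4-/- Control lay above WT-Control without overlap. *Acot1*, the cytosolic type I enzyme, had 6 and 4 counts under Control and 1169 and 1734 under EtOH in WT, and 46 and 57 against 544 and 342 in Elf4-/-. Its groups were ordered as those of *Acot3*, again with no overlap between any pair.

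The mitochondrial member *Acot2* had 16 and 8 counts under Control against 214 and 457 under EtOH in WT, and 25 and 5 against 182 and 125 in Elf4-/-. The Control libraries of both genotypes overlapped for this gene. *Acot4*, which cleaves succinyl-CoA and other dicarboxylic acyl-CoA esters in peroxisomes, had 168 and 95 counts against 1785 and 3117 in WT, and 827 and 368 against 1266 and 1170 in Elf4-/-. *Acot6*, counted least over all libraries, had 7 and 4 counts against 34 and 25 in WT, and 4 and 7 against 21 and 16 in Elf4-/-. *Acot1*, *Acot3* and *Acot6* had no WT-Control library above the expression level of the filter, and *Acot6* had none in Elf4-/- Control, so these genes passed through the groups in which they were high.

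**Figure D1:**
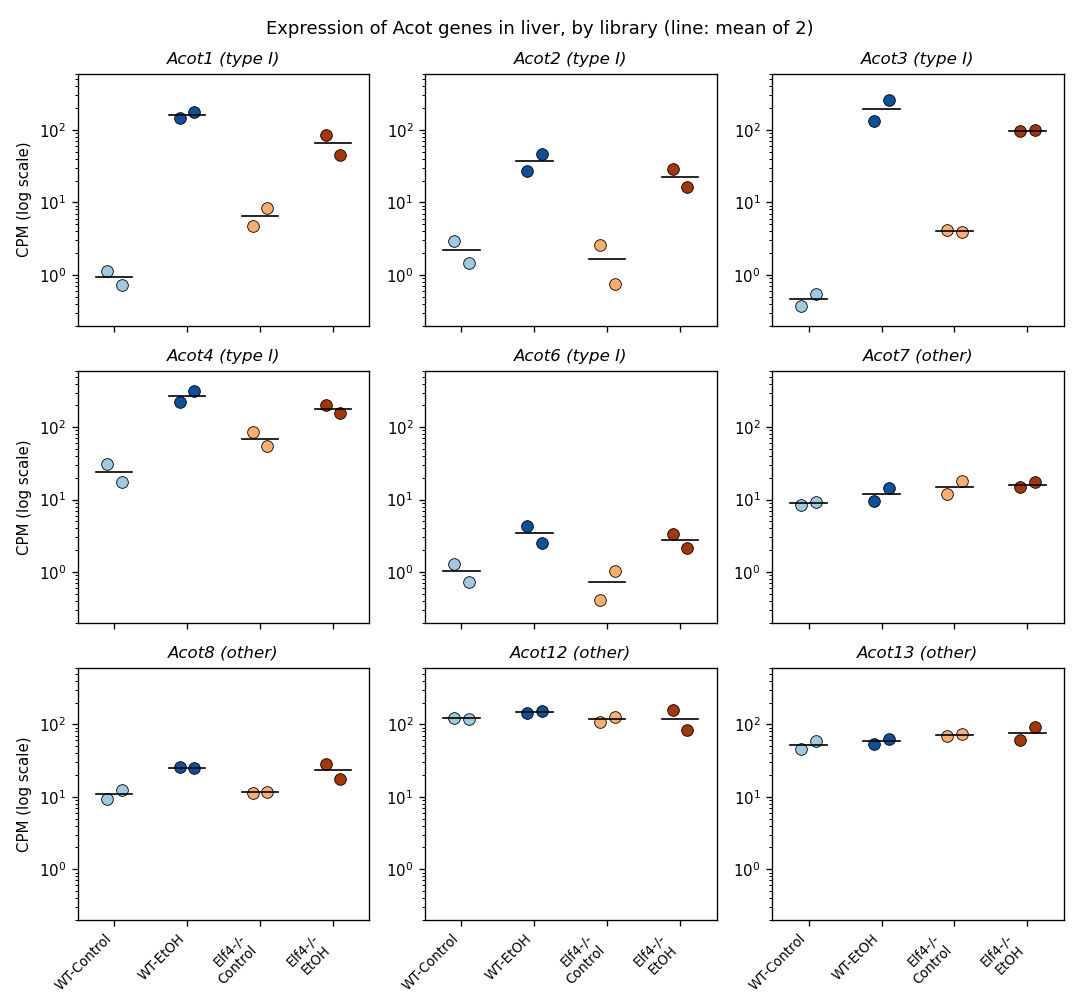
Level of each *Acot* gene in CPM on a log axis, with 1 point per library and a line at the mean of the 2 libraries of a group. *Acot3* runs from 0.372 and 0.551 CPM in WT-Control to 132 and 260 CPM in WT-EtOH, and *Acot12* from 84.5 to 155 CPM over all libraries.

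The diet contrast in WT chose the family and is given as a description only. In it, *Acot3* had a log2 fold change of 8.68 ± 0.47 (SE), and its pooled CPM ratio of EtOH to Control was 439, with a 95% counting interval of 188 to 1354. *Acot1* had 7.43 ± 0.49 and a pooled ratio of 177 (interval 96.0 to 369). *Acot2*, *Acot4* and *Acot6* had 4.04, 3.48 and 1.72. Among the other members, *Acot8* had 1.20, *Acot7* 0.45, *Acot12* 0.29 and *Acot13* 0.18. Of the 9 members, 8 were higher in WT-EtOH without overlap and *Acot13* overlapped. This contrast chose the family, and *Acot1*, *Acot3* and *Acot6* had no WT-Control library above the filter level. The count is therefore not read against all genes tested, of which 34.1% were higher without overlap and 10.8% were called higher. The intervals cover counting error only, since PCR copies were not separated.

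The Elf4-/- mice gave a diet contrast that had not been used to choose the family. There, *Acot3*, *Acot1* and *Acot2* rose under alcohol, and none of the members fell. *Acot3* went from 4.03 ± 0.228 to 97.9 ± 0.816 CPM (mean ± SD, n = 2 in each group), a log2 fold change of 4.59 ± 0.34 (SE, edgeR quasi-likelihood test, adjusted p = 0.000715). *Acot2* went from 1.65 ± 1.28 to 22.8 ± 8.77 CPM, a log2 fold change of 3.68 ± 0.52 (edgeR adjusted p = 0.0113). *Acot1* went from 6.60 ± 2.67 to 65.9 ± 29.2 CPM, a log2 fold change of 3.34 ± 0.37 (edgeR adjusted p = 0.00516). These 3 of 9 members called, all of them type I, stand against 1.71% of all genes called higher in this contrast.

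The remaining type I genes had the same sign without passing the threshold. *Acot4* went from 69.7 ± 21.1 to 178 ± 32.9 CPM (n = 2), with a log2 fold change of 1.35 ± 0.33 (edgeR adjusted p = 0.0563). *Acot6* had 1.95 ± 0.66 (edgeR adjusted p = 0.133). *Acot1*, *Acot2*, *Acot3* and *Acot4* were higher in Elf4-/- EtOH without overlap, as were 25.8% of all genes. *Acot6* did not overlap either, but it passed the filter on low counts only through the EtOH groups and is left out of this count. When the counts of the 5 were added and the sum was fitted as 1 gene, its log2 fold change was 2.15 ± 0.34. The median over the 5 was 3.34, or 3.51 without *Acot6*, against 0.01 over all genes tested.

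Outside the cluster, the diet values in Elf4-/- lay near 0 for 3 genes, and *Acot8*, a peroxisomal thioesterase of broad chain-length range, stood above them. *Acot8* had 111 and 79 counts under Control against 181 and 132 under EtOH, and its CPM went from 11.6 ± 0.288 to 23.1 ± 8.0 (n = 2). The groups did not overlap, and the log2 fold change of 1.0 ± 0.27 missed the threshold (edgeR adjusted p = 0.0755). *Acot7*, a cytosolic enzyme best known from brain, had 0.11 ± 0.29 (edgeR adjusted p = 0.859). *Acot12*, the cytosolic acetyl-CoA thioesterase of liver, had 0.03 ± 0.27 (edgeR adjusted p = 0.965). *Acot13*, a mitochondria-associated member, had 0.10 ± 0.23 (edgeR adjusted p = 0.847). For these last 3 genes the Elf4-/- diet groups overlapped, and the sign of each turned when single libraries were left out. The median over the 4 was 0.10.

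The calls depended on the Elf4-/- libraries, and this was not particular to the members. The number of all genes called higher also fell without either Elf4-/- Control library and rose without Elf4-/- EtOH replicate 2. Without Elf4-/- Control replicate 1, *Acot3* alone was called (edgeR adjusted p = 0.0198), while *Acot1* had a log2 fold change of 2.95 (adjusted p = 0.0585) and *Acot2* of 4.89 (adjusted p = 0.0524). Without Elf4-/- Control replicate 2, *Acot1* and *Acot3* were called, and *Acot2* had a log2 fold change of 3.14 (edgeR adjusted p = 0.145). Without Elf4-/- EtOH replicate 2, 5 members were called, *Acot4* and *Acot8* in addition. DESeq2 called 4 members, *Acot4* in addition (adjusted p = 0.00209), against 3.23% of all genes called higher.

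**Figure D2:**
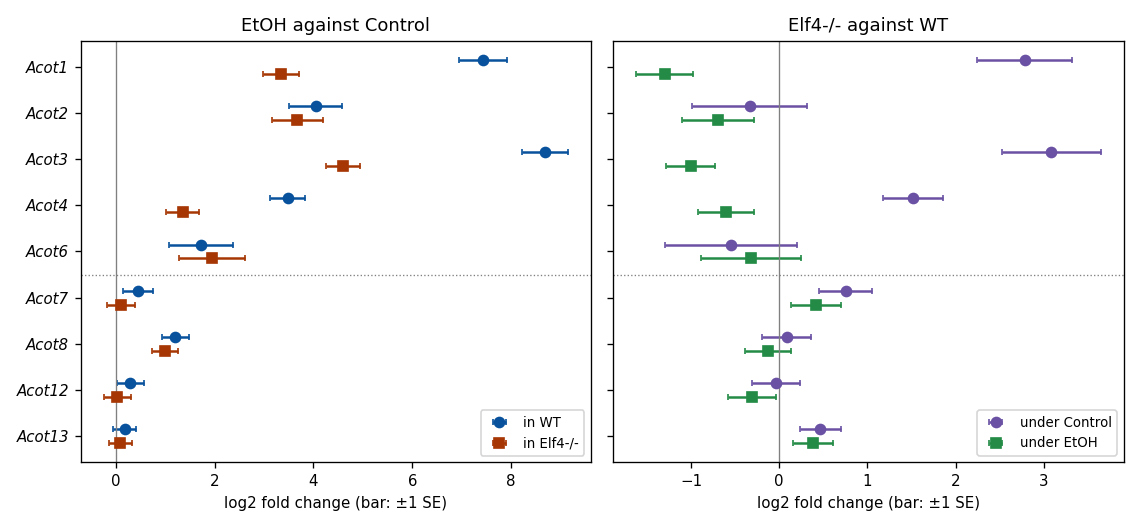
The log2 fold change of each member with bars of 1 SE, for EtOH against Control on the left (circles WT, squares Elf4-/-) and for Elf4-/- against WT on the right (circles under Control, squares under EtOH). Above the dotted line are the type I genes, whose diet values run from 1.35 to 8.68; below it they run from 0.03 to 1.20.

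The ratio of summed type I to summed other counts within a library does not depend on scaling. Its log2 was −2.32 and −3.25 under Control and 1.21 and 1.65 under EtOH in the WT libraries, and −1.06 and −1.75 against 0.68 and 0.59 in the Elf4-/- libraries. Both Control groups were thus below 0 and both EtOH groups above it, with no overlap between any pair of groups. Exon length was not divided out here, and it runs from 744 bases for *Acot13* to 6674 for *Acot4*. The place of the log2 ratio around 0 therefore compares counts, not levels per length. Summed type I CPM went from 29.0 ± 11.4 under Control to 669 ± 189 under EtOH in WT (SD, n = 2), and from 82.7 ± 19.5 to 368 ± 70.9 in Elf4-/-. The summed others went from 193 ± 9.85 to 244 ± 17.9 CPM in WT and from 216 ± 21.7 to 236 ± 35.5 CPM in Elf4-/-. The diet difference of the mean log2 ratio was 4.22 in WT and 2.04 in Elf4-/-; a score over the members gets no test.

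**Figure D3:**
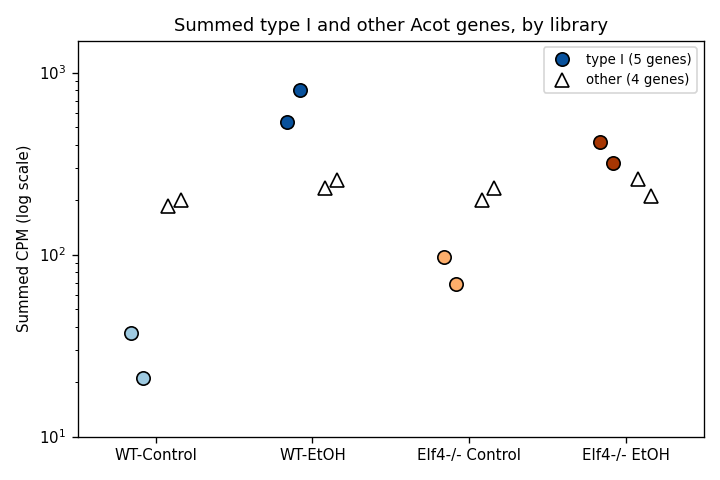
Summed CPM, not divided by exon length, on a log axis. The 5 type I genes are filled circles in the colour of their group, and the 4 other genes are open triangles, with 1 point per library. The circles lie below the triangles in both Control groups and above them in both EtOH groups.

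The make-up of the type I total differed between the diets as well as its size. Divided by exon length, *Acot4* held 70.2% ± 0.558 (SD, n = 2) of the type I total in WT-Control and 73.0% ± 6.54 in Elf4-/- Control, but 26.3% ± 1.74 in WT-EtOH and 32.3% ± 0.392 in Elf4-/- EtOH. *Acot3* held 2.95% ± 1.87 and 8.43% ± 1.35 in the Control groups, and 35.6% ± 6.08 and 35.1% ± 7.18 in the EtOH groups of WT and Elf4-/-. *Acot1* held 4.65% under Control and 27.2% under EtOH in WT, and 12.7% and 19.8% in Elf4-/-. *Acot2* held 19.1% and 10.6% in WT, and 4.98% and 12.3% in Elf4-/-. *Acot6* held at most 3.06% as a group mean. For *Acot4* and *Acot3* the libraries of one diet did not overlap those of the other.

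**Figure D4:**
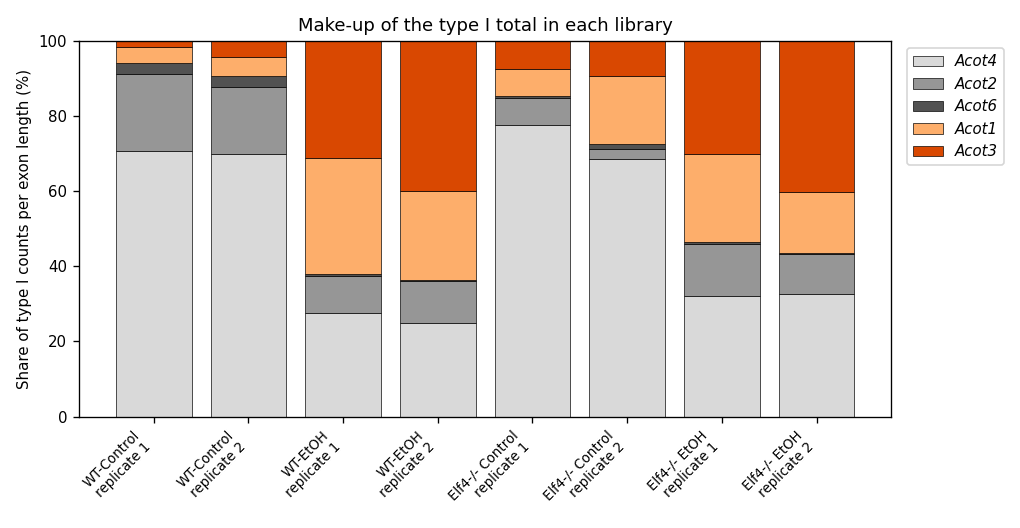
Share of each type I gene in the type I counts of a library after division by exon length, in percent, with 1 bar per library. *Acot4* (lightest) fills most of each Control bar, and *Acot3* with *Acot1* (orange) fill most of each EtOH bar.

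Levels per kb of exon put the genes on 1 scale. *Acot13* was highest in each group, at 69.6 ± 11.8 and 78.9 ± 9.43 CPM per kb under Control and EtOH in WT, and 96.3 ± 4.99 and 102.8 ± 28.0 in Elf4-/- (SD, n = 2). In WT-Control, *Acot12* followed at 36.7 ± 0.499 CPM per kb, then *Acot8*, *Acot7*, *Acot4* and *Acot2*. The bottom 3 there, *Acot1*, *Acot6* and *Acot3*, were at 0.236, 0.159 and 0.134 CPM per kb. Each neighbouring pair among these 3 overlapped, while *Acot1* lay below *Acot2* without overlap. In WT-EtOH, *Acot3* ranked second at 57.1 ± 26.4 CPM per kb, and each neighbouring pair in the order *Acot13*, *Acot3*, *Acot12*, *Acot1*, *Acot4* overlapped. In Elf4-/- EtOH, *Acot12* at 36.4 ± 15.2 CPM per kb, *Acot3* at 28.5 ± 0.237 and *Acot4* at 26.7 ± 4.92 likewise overlapped in turn. *Acot6* was lowest in the 3 groups other than WT-Control.

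The genotype contrasts share their WT libraries with the contrast that chose *Acot3*, so no p is given for *Acot3*, and its place in these contrasts is partly set by that choice. Under Control diet, *Acot4*, *Acot7* and *Acot13* had higher values in Elf4-/- than in WT without overlap, as did 20% of all genes. *Acot1* and *Acot3* had this order too, but are not read against that share. *Acot1* had no WT-Control library above the filter level, and the WT values of *Acot3* chose the family. *Acot1* went from 0.926 ± 0.270 CPM in WT to 6.60 ± 2.67 in Elf4-/- (SD, n = 2), a log2 difference of 2.79 ± 0.54 (SE) that missed the threshold (edgeR adjusted p = 0.176). *Acot4* went from 24.4 ± 9.77 to 69.7 ± 21.1 CPM, a log2 difference of 1.52 ± 0.34 (edgeR adjusted p = 0.277). *Acot3* had a pooled ratio of 8.79 with a 95% counting interval of 3.59 to 27.9. Outside the cluster, *Acot7* had a log2 difference of 0.75 ± 0.30 (edgeR adjusted p = 0.649) and *Acot13* of 0.47 ± 0.23 (edgeR adjusted p = 0.729). *Acot2* and *Acot6* had −0.33 ± 0.65 and −0.55 ± 0.75, and *Acot8* and *Acot12* had 0.083 ± 0.28 and −0.041 ± 0.27. Of the 8 members tested 0 were called by edgeR, 3 had an unadjusted p under 0.05 (*Acot1*, *Acot4* and *Acot7*), and DESeq2 called 2 (*Acot1* and *Acot4*). Over all genes edgeR called 0.0143% and DESeq2 0.565%, and no such share is given here for the unadjusted p. *Acot1* is not read against these shares either, for the same reason as above. Its p-values also rest on the WT-Control libraries that took part in choosing the family. Without either Elf4-/- EtOH library, which are not part of this contrast but of the shared spread, edgeR called *Acot1* (adjusted p = 0.0275 without replicate 1 and 0.0255 without replicate 2).

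Under EtOH, *Acot1* and *Acot4* had lower values in Elf4-/- than in WT without overlap, as did 21.4% of all genes. *Acot7* had higher values without overlap, as did 20%. *Acot3* was lower without overlap too, but its WT values chose the family, so it is not read against the 21.4%. *Acot1* was at 162 ± 20.4 CPM in WT-EtOH and 65.9 ± 29.2 in Elf4-/- EtOH, a log2 difference of −1.30 ± 0.32 (edgeR adjusted p = 0.199). *Acot3* was at 196 ± 90.7 and 97.9 ± 0.816 CPM, a log2 difference of −1.0 ± 0.28, which was −0.43 without WT-EtOH replicate 2 and −1.42 without WT-EtOH replicate 1. *Acot4* was at 271 ± 64.9 and 178 ± 32.9 CPM, a log2 difference of −0.61 ± 0.32 (edgeR adjusted p = 0.555). *Acot7* had 0.42 ± 0.29 and *Acot13* 0.38 ± 0.23, and the values of *Acot2*, *Acot6*, *Acot8* and *Acot12* were −0.70 ± 0.41, −0.32 ± 0.57, −0.12 ± 0.26 and −0.30 ± 0.27. Of the 8 members tested edgeR called 0, against 0.143% of all genes, while *Acot1* had an unadjusted p of 0.00233 and was the 1 member called by DESeq2 (adjusted p = 0.0229, where DESeq2 called 1.29% of all genes). Without Elf4-/- EtOH replicate 1, edgeR called *Acot1* (adjusted p = 0.0175).

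The interaction measures how far the diet effect in Elf4-/- fell short of or exceeded that in WT. It was −4.09 ± 0.62 on the log2 scale for *Acot1* (edgeR adjusted p = 0.129) and −2.12 ± 0.46 for *Acot4* (edgeR adjusted p = 0.229). *Acot3* had −4.09 ± 0.62, given without a p. The interaction holds the WT diet contrast that chose the family, so the p-values of other members may be tied to that choice too. *Acot1* in particular ran with *Acot3* over the 8 libraries (Pearson correlation 0.986). Within groups their correlation was −0.012, so the value over all libraries describes the group means. *Acot2* had −0.37 ± 0.78 and *Acot6* 0.22 ± 0.92, and *Acot7*, *Acot8*, *Acot12* and *Acot13* had −0.34, −0.21, −0.26 and −0.085. *Acot4* was higher in Elf4-/- under Control and lower under EtOH, without overlap under either diet, as were 4.62% of all genes. *Acot1* and *Acot3* had this order too, but are not read against that share. *Acot1* had no WT-Control library above the filter level, and the WT values of *Acot3* chose the family. By edgeR 0 of 8 members tested were called, and 0 of all 13993 genes. Unadjusted, 2 members had an edgeR p under 0.05, and the share of all genes at that level is not given here. DESeq2 called *Acot1* (adjusted p = 4.73e-06) and *Acot4* (adjusted p = 0.00205), among 111 genes, 0.793% of those tested. *Acot1* is not read against this share either. In edgeR the *Acot1* interaction was also called without the filter on low counts (adjusted p = 0.0372) and without Elf4-/- EtOH replicate 1 or 2 (adjusted p = 0.00753 and 0.00794).

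Sequence overlap within the cluster limits how the counts can be assigned. Of the 150-base windows along the exons, 10.21% of those of *Acot2* also occurred in *Acot1*, and 6.92% of those of *Acot1* occurred in another member. In *Acot3*, 10.68% of windows occurred elsewhere, mostly in *Gm49366*, a protein-coding gene model on the same strand that covers 11.52% of *Acot3* exon bases and is not in the table used here. *Acot4* and the members outside the cluster shared no window. The antisense gene *4732463B04Rik* covers 9.08% of *Acot3* and 9.21% of *Acot4* exon bases on the opposite strand. It had 36 and 25 counts under Control against 311 and 590 under EtOH in WT, and 127 and 76 against 298 and 279 in Elf4-/-. In Elf4-/- it rose with alcohol by 1.79 ± 0.27 on the log2 scale (edgeR adjusted p = 0.0161). No source used here states that the counting used strand, so its reads cannot be told from those of *Acot3* and *Acot4*. *Acot8* likewise shares 12.32% of its exon bases with *Snx21* on the opposite strand, and *Acot12* 4.52% with *4833422C13Rik*.

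Genes next to the cluster were also read. The 20 tested genes within 500 kb of its ends had a median log2 fold change of 0.21 with diet in Elf4-/-, against 0.01 over all genes. Of them, 1 was called higher and 0 lower, where 1.71% and 1.18% of all genes were. That gene was *Entpd5*, a nucleoside diphosphatase of the endoplasmic reticulum, which had 162 ± 13.9 CPM under Control and 391 ± 129 under EtOH (SD, n = 2), with a log2 fold change of 1.27 ± 0.28 (edgeR adjusted p = 0.0421). The call was lost without any 1 library other than Elf4-/- EtOH replicate 2, with adjusted p from 0.0539 to 0.248. In WT, given as a description, 3 of the 20 neighbours were called higher and 0 lower, where 10.8% of all genes were called higher. The neighbours had a median of 0.14 and ran from −1.46 to 1.87. *Acot6* at 1.72 lay within that range, and the other type I genes lay above it.

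**Figure D5:**
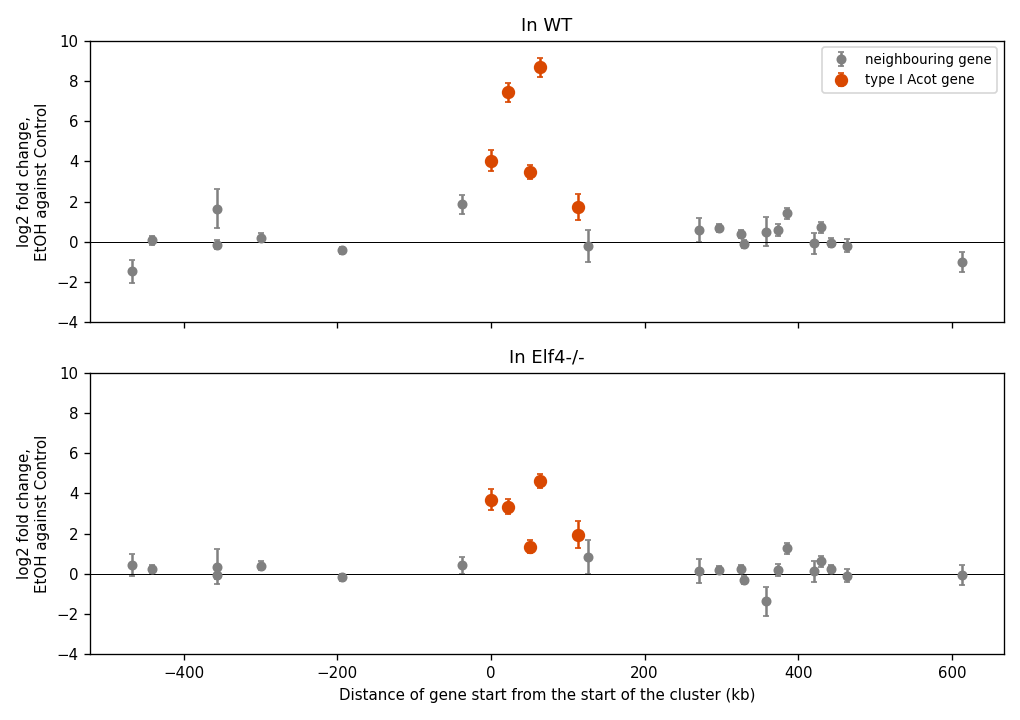
The log2 fold change of EtOH against Control (bars of 1 SE) in WT, top, and Elf4-/-, bottom, against the distance of each gene's start from the start of the cluster in kb. Type I genes (orange) lie at 1.35 or above in both panels, and the 20 neighbours (grey) lie between −1.46 and 1.87.

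Genes that share the pathway were read from lists. PPARalpha targets, the genes of fatty acid oxidation and omega-oxidation, had 8 of 33 tested members called higher with diet in Elf4-/- and 0 lower, with a median log2 fold change of 0.80 against 0.01 over all genes, of which 1.71% were called higher and 1.18% lower. *Cyp4a10*, a fatty acid omega-hydroxylase, had 96.2 ± 13.8 CPM under Control and 1192 ± 520 under EtOH (SD, n = 2), with a log2 fold change of 3.63 ± 0.35 (edgeR adjusted p = 0.00197). Its paralog *Cyp4a14* had 6.11 ± 1.19 (edgeR adjusted p = 0.0307), with an SD in Elf4-/- EtOH of 2395 around a mean of 2660 CPM. *Pdk4*, which inhibits pyruvate dehydrogenase, had 5.84 ± 1.30 (edgeR adjusted p = 0.0456), and only 2.06 without Elf4-/- EtOH replicate 1, where it was no longer called (edgeR adjusted p = 0.12). The *Cyp4a14* and *Pdk4* calls were also lost without either WT-EtOH library (adjusted p from 0.0603 to 0.0819) and without either Elf4-/- Control library (from 0.175 to 0.294), that of *Pdk4* without either WT-Control library (0.0692 and 0.0696), and that of *Cyp4a10* without Elf4-/- Control replicate 2 (0.0897). The count of 8 fell to 4 without either WT-EtOH library, to 1 and 0 without Elf4-/- Control replicate 1 and 2, and to 5 without Elf4-/- EtOH replicate 1, and rose to 17 without Elf4-/- EtOH replicate 2. DESeq2 called 15 higher, against 3.23% of all genes. In each of these runs the number of all genes called higher moved in the same direction as the count of the list.

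The acyl-CoA synthetases and transporters, which supply the esters that thioesterases cleave, had 2 of 18 called higher and 0 lower, with a median of 0.30. *Cd36*, a fatty acid transporter, rose by 3.39 ± 0.46 (edgeR adjusted p = 0.00973), and *Acss3*, a mitochondrial short-chain synthetase, rose by 2.03 ± 0.38 (edgeR adjusted p = 0.0277). Among 16 genes of CoA and carnitine handling in peroxisomes, *Hacl1*, an enzyme of alpha-oxidation, was the 1 called higher, at 1.99 ± 0.30 (edgeR adjusted p = 0.0157), with 0 called lower. Each of these 3 calls was lost without either Elf4-/- Control library, with adjusted p from 0.117 to 0.245, and that of *Acss3* also without Elf4-/- EtOH replicate 1 (0.0561). Of 12 transcription factors of the pathway, 1 was called higher and 0 lower: *Pparg*, the adipogenic PPAR, at 2.0 ± 0.40 (edgeR adjusted p = 0.0319), a call lost without either WT-EtOH or either Elf4-/- Control library (adjusted p from 0.0678 to 0.223). The 9 genes of CoA synthesis had 0 called by edgeR, 5 at an unadjusted p under 0.05 and 1 called by DESeq2. The 11 other thioesterases had 0 called by edgeR, 5 at an unadjusted p under 0.05 and 0 called by DESeq2, with a median of −0.27. The share of all genes at an unadjusted p under 0.05 is not given here, so these unadjusted counts are not read as unusual.

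The genes whose log2 CPM ran most like *Acot3* over the 8 libraries, out of 9390 candidates, included *Rcn1*, *Dnaja1*, *Rwdd1* and *Sucla2*, with Pearson correlations of 0.990 to 0.992. Those most like the type I sum were *4732463B04Rik*, *App*, *Akr1c19*, *Rspo3* and *Akr1c13*, at 0.986 to 0.993. The 8 points are the 4 groups in pairs, so these values describe the order of the groups, with no test.

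The cell markers given here and the library make-up differed between the diets in WT without overlap. In Elf4-/-, the hepatocyte, Kupffer cell and stellate cell markers did so too. The sinusoidal endothelial markers and the mitochondrial share overlapped between the diets in Elf4-/-. The summed CPM of 6 hepatocyte markers ranged from 50267 to 70333 under Control and 30249 to 36150 under EtOH in WT, and from 62084 to 69653 and 40229 to 51042 in Elf4-/-. Kupffer cell markers summed to 166 to 211 CPM under Control and 531 to 541 under EtOH in WT, and to 153 to 155 and 197 to 203 in Elf4-/-. Stellate cell markers summed to 27.2 to 67.7 and 248 to 330 CPM in WT, and to 90.7 to 121 and 196 to 318 in Elf4-/-. Sinusoidal endothelial markers summed to 45.9 to 78.7 and 230 to 280 CPM in WT, and to 114 to 121 and 117 to 191 in Elf4-/-. All 6 markers of each type were detected in each group. Mitochondrial genome genes took 23.4% to 33.7% of counts under Control and 10.8% to 12.5% under EtOH in WT, and 18.5% to 18.7% and 18.3% to 22.1% in Elf4-/-. Without them the same 3 members were called with diet in Elf4-/-. In whole liver, fewer cells of a type and less RNA per cell cannot be told apart, and the part of these shifts in the *Acot* values was not tested.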

How the data were processed

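Liver RNA was extracted with Trizol and sequenced as paired-end reads on an Illumina HiSeq. Per the study's methods and processing notes, the authors checked reads with FastQC, aligned them with HISAT2 to mm10, sorted with SAMtools, counted with HTSeq and tested with DESeq2. Versions, annotation, strand and the handling of multiply mapping reads are not given in the sources used here. The authors deposited unnormalized counts per gene symbol, 1 column per library, with totals from 6171051 to 9157362.

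Genes were filtered with filterByExpr by group (13993 of 19267 kept) and scaled by TMM. All 8 libraries entered 1 model with 4 groups in edgeR 4.0.16 (R 4.3.3). Contrasts used its quasi-likelihood test, and p-values were adjusted by Benjamini and Hochberg over all 13993 genes (threshold 0.05). The WT diet contrast chose the family, so no member was tested in it. Groups were taken as not overlapping when all CPM values of one exceeded all of the other. Pooled ratios were given 95% exact counting intervals. Likeness used log2 CPM with a prior count of 2. Loci, exon lengths and shared windows came from GENCODE M21 (GRCm38) and promoters from RefSeq. The fit was tested on simulated data.

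All 9 members analysed were named in each contrast. For each list, up to 3 genes were named with the largest log2 fold change among those called for diet in Elf4-/- and averaging 50 counts or more, and 5 genes each for likeness to *Acot3* and to the type I sum. Of the genes like *Acot3*, 1 is not reported here. *4732463B04Rik* was also named for its overlap, after its values were seen. Members and lists were chosen with earlier results of these data known. Alternatives were DESeq2 1.42.0, other scalings, no filter, fewer libraries, a replicate block and summed type I counts; those for the lists, and the crossed block, were chosen after seeing the data.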

Additional observations from a re-analysis of the deposited data

Results flagged for a closer look

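For 3 genes, the effect of genotype had opposite signs under the diets without overlap. *Acot1*, *Acot3* and *Acot4* were higher in Elf4-/- than in WT under Control and lower under EtOH, without overlap under either diet. This order was seen in 4.62% of all genes tested. For *Acot3* the order is partly built in, since its WT values under both diets chose the family, so it is not read against that share. Nor is *Acot1*, which had no WT-Control library above the expression level of the filter. The difference between the effects (EtOH minus Control, log2 scale) was −4.09 for *Acot1*, −4.09 for *Acot3* and −2.12 for *Acot4*. By edgeR's interaction term, the difference missed the threshold for *Acot1* (adjusted p = 0.129) and *Acot4* (adjusted p = 0.229); for *Acot3* it was not tested.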

How the results depend on the processing

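With diet in Elf4-/-, *Acot3* was called under each alternative run, and *Acot1* under each but the one without Elf4-/- Control replicate 1. The count of members called was 3, 4 by DESeq2 and without the filter, 2 with only the 4 libraries compared (*Acot2* lost, edgeR adjusted p = 0.0679), and 1 to 5 leaving out 1 library. Summed, the type I genes had a log2 fold change of 2.15 ± 0.34 (SE). The sum holds *Acot6* and is a score over the members, so it gets no test. Over all genes, DESeq2 called 452 higher against 239, and 149 against 17 in genotype under EtOH. With genotype under EtOH the count of 0 became 1 by DESeq2 and 0 to 1 leaving out 1 library. With genotype under Control it became 2 by DESeq2 and 0 to 1 leaving out 1 library. In the interaction it became 2 by DESeq2, 1 without the filter, and 0 to 1 leaving out 1 library. The cause was not tested. The median over the members in WT, 1.72, was 2.15 with library totals alone, 0.45 with type I summed and 1.30 to 2.18 leaving out 1 library. Scaling by library totals alone moved the median of all genes by 0.43 in WT diet, −0.23 and 0.23 in genotype under EtOH and Control, and −0.46 in the interaction, and the WT diet calls from 1517 higher and 1508 lower to 3416 and 634.

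The diet difference of the log2 ratio in Elf4-/-, 2.04, was 2.71 with the mean of log2 CPM. By raw counts, *Acot4* held 83.9% of the type I total under Control and 40.8% under EtOH in WT, and 83.6% and 48.5% in Elf4-/-; division by exon length makes the difference. With library totals alone, *Acot12* turned to −0.014 (diet in Elf4-/-) and 0.18 (genotype under Control), and *Acot6* to −0.23 (interaction). Leaving out 1 library, signs turned only in results that were not called. Diet in Elf4-/- ran from −0.17 to 0.43 for *Acot7*, −0.48 to 0.38 for *Acot12* and −0.23 to 0.35 for *Acot13*. Genotype under EtOH ran from −0.67 to 0.087 for *Acot6*, −0.52 to 0.19 for *Acot8* and −0.80 to 0.063 for *Acot12*. Genotype under Control ran from −1.55 to 0.26 for *Acot2*, −1.28 to 0.041 for *Acot6*, −0.11 to 0.32 for *Acot8* and −0.16 to 0.078 for *Acot12*. The interaction ran from −0.96 to 0.85 for *Acot2*, −0.36 to 0.96 for *Acot6*, −0.61 to 0.10 for *Acot8*, −0.77 to 0.10 for *Acot12* and −0.41 to 0.17 for *Acot13*.

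Replicate numbers do not pair the samples: deviations of same-numbered libraries correlated from −0.134 to 0.114 between groups. With the replicate block, 3 members were called for diet in Elf4-/- and 0 in the other contrasts tested; over all genes, 141 were called higher with diet in Elf4-/- against 239. With the WT numbers crossed, 1483 genes were called higher with diet in WT against 1517. Counts of 2 to 16 behind *Acot1*, *Acot2*, *Acot3* and *Acot6* in WT-Control limit their fold changes, and a lone library left in a group was assumed to vary like the others.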

Other observations

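Relatives of the family outside the named members were also measured. *Acot9*, a mitochondrial thioesterase, had 13 and 11 counts under Control against 51 and 53 under EtOH in WT, and 13 and 10 against 31 and 20 in Elf4-/-. With diet its log2 fold change was 1.40 ± 0.45 (SE) in WT and 1.41 ± 0.47 (edgeR adjusted p = 0.127) in Elf4-/-. The EtOH libraries lay above the Control libraries in both genotypes, as they did for 34.1% of all genes in WT and 25.8% in Elf4-/-. *Acot11*, a thioesterase with a lipid-binding START domain, had 22 and 34 counts against 10 and 41 in WT, and 93 and 77 against 58 and 43 in Elf4-/-, and its diet groups overlapped in WT. Its log2 fold change with diet was −0.89 ± 0.52 in WT and −0.49 ± 0.46 (edgeR adjusted p = 0.575) in Elf4-/-. Both genes were chosen after their values were seen.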
